A study of Rattus norvegicus with 9 samples.

Results

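The NMDA and AMPA receptors are the main fast glutamate receptors of the brain, and the 9 genes described here encode their subunits: Grin1, Grin2a, Grin2b, Grin2c and Grin2d for the NMDA receptor, and Gria1, Gria2, Gria3 and Gria4 for the AMPA receptor. They were taken by name, as all probe sets that the platform annotation gives to exactly 1 of these symbols. This gave 21 probe sets of 7006 with 1 symbol, 11 for NMDA and 10 for AMPA subunits. RNA came from the supraoptic nucleus of male Sprague Dawley rats aged 10 to 12 weeks and was measured on 9 Affymetrix arrays. There were 3 arrays from controls, 3 from rats dehydrated for 1 day and 3 from rats dehydrated for 3 days, and the titles letter the arrays of each group a, b and c. The labels do not say whether an array carries RNA of 1 animal or of a pool, so the p-values rest only on how far these samples scatter, and some of that scatter may be technical.

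The supraoptic nucleus holds the magnocellular neurons that secrete vasopressin and oxytocin, and glutamate is a principal excitatory input to them. An NMDA receptor joins obligatory GluN1 subunits, from Grin1, which bind glycine or D-serine, with GluN2 subunits, from Grin2a to Grin2d, which bind glutamate and set the kinetics and magnesium block of the channel. AMPA receptors are tetramers of GluA1 to GluA4, and the edited GluA2 subunit, from Gria2, makes them nearly impermeable to calcium.

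The medians of the 9 arrays lay between 26.8 and 40.3 on the linear MAS5 signal scale, on which all signals below are given. Vasopressin RNA was bright on every array (Avp, 1622 to 5678). Oxytocin RNA (Oxt) read 208.3 on control c and 272.0 on 1-day c, against 2331 to 4356 on the other 7 arrays. These same arrays also had the lowest maxima, 2105 and 2239, against 3867 to 6295 elsewhere. Where leaving out this pair of doubted arrays (for 3 days against control, control c alone) turned a sign or moved a value by more than 1.5 times, the value without them is given for the subunits and the genes and lists named. For 3 days this kept 3-day c while control c was out, so the letters of the groups no longer matched.

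Many of the subunit probe sets were dim. Of the 21, 12 passed the filter for testing (a mean over the 9 arrays of at least 23.1, the 40th percentile of all probe sets), 8 for NMDA and 4 for AMPA subunits. They cover 7 genes; Gria3 and Gria4 had no probe set above it. Fold changes are differences of log2(signal + 4), which understates the change of dim genes. Signals of different probe sets depend on their probes and were not set against each other.

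After dehydration no NMDA or AMPA subunit changed past the threshold, at 1 day or at 3 days. With limma and Benjamini-Hochberg adjustment over all 5247 probe sets tested, 0 of the 12 were called at 1 day (background 0.0 percent), 0 at 3 days (0.0 percent) and 0 between the times (0.0 percent). At an unadjusted p under 0.05 the counts were also 0 of 12 in each comparison, where 1.01, 1.72 and 1.83 percent of all probe sets passed. The genes nearest to a difference were Grin2a and Grin2b, whose 3-day arrays all lay above the control arrays. The plot of signals by array shows this, together with the wide gaps between letters.

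**Figure D1:**
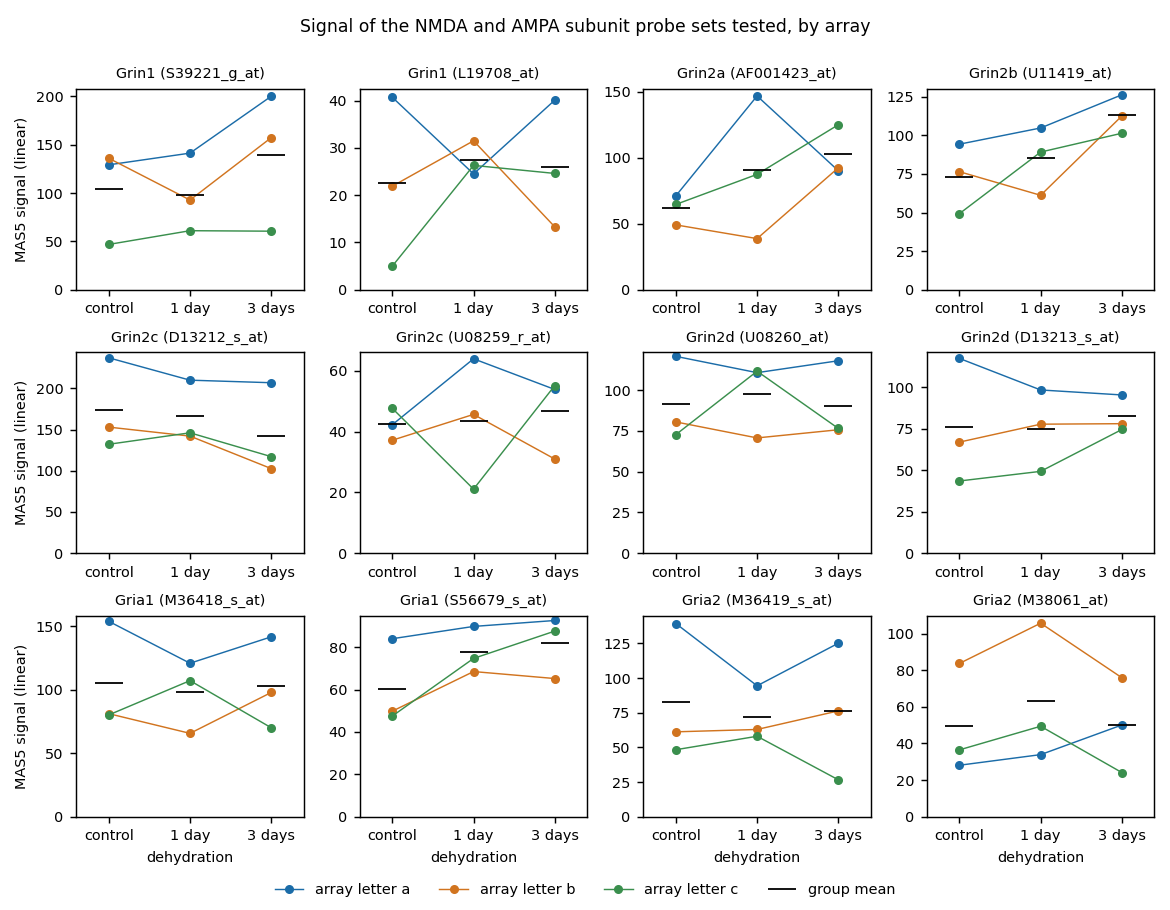
MAS5 signal (linear axis from 0) of the 12 tested subunit probe sets on the 9 arrays, by dehydration group. Points are arrays, coloured lines join arrays of the same letter and black bars are group means. For Grin2a (AF001423_at) and Grin2b (U11419_at) the 3-day points all lie above the control points; in the other 10 panels these groups overlap.

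Grin2b encodes GluN2B, a subunit that gives NMDA receptors slow closing. Its only probe set, U11419_at, read 94.3, 76.5 and 49.3 on the control arrays a, b and c, 104.8, 61.2 and 89.2 at 1 day and 126.3, 112.6 and 101.4 at 3 days. The 3-day arrays lay above all control arrays, while the 1-day arrays overlapped both groups. The mean was 113.4 ± 12.5 at 3 days and 73.4 ± 22.7 in control (SD, n = 3 each), a fold of 1.56 or 0.64 ± 0.32 on the log2 scale (± SE). The 95% interval of that difference ran from -0.06 to 1.34 (limma adjusted p = 1.00). Taken letter by letter, the difference was 0.41 for a, 0.53 for b and 0.98 for c. Without control c it was 0.40. At 1 day the difference from control was 0.22 ± 0.32, with 2 letter pairs higher and 1 lower, and it was -0.08 without control c and 1-day c. Between the times it was 0.43 ± 0.32, and the 3-day array was the higher one in all 3 pairs.

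Grin2a encodes GluN2A, the subunit of faster NMDA receptors that gains ground over GluN2B as the brain matures. Its brighter probe set, AF001423_at, read 71.2, 49.2 and 64.7 in control, 146.9, 38.8 and 87.5 at 1 day and 90.2, 92.5 and 125.1 at 3 days. The 3-day arrays again lay above all control arrays, and the 1-day arrays were the most scattered, holding both the lowest and the highest value of the 9. The mean was 102.6 ± 19.5 at 3 days and 61.7 ± 11.3 in control (SD, n = 3 each), a fold of 1.62 or 0.70 ± 0.42 on the log2 scale. The 95% interval was -0.23 to 1.62 (limma adjusted p = 1.00), and the letter pairs stood at 0.32, 0.86 and 0.91. At 1 day the difference was 0.37 ± 0.42, and without 1-day a it was -0.06. A further Grin2a probe set, D13211_s_at, lay under the filter. Its 3-day arrays read 20.8, 7.0 and 21.6, against 20.1, 46.6 and 10.8 in control, so that it did not show the same separation.

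Among all probe sets tested, 4.73 percent had 3-day arrays all above the control arrays, against 2 of the 12 subunit probe sets. None of the 12 had 3-day arrays all below control (3.01 percent of all). Without control c the same 2 were apart, of a background of 8.29 percent. At 1 day 0 of 12 were apart in either direction, with backgrounds of 2.63 percent on the higher and 1.58 percent on the lower side. With control c and 1-day c left out, which leaves 2 arrays against 2, 1 was apart on the higher side, Grin2c U08259_r_at, beside 13.4 percent of all. Between the times 0 of 12 were apart (3.05 and 2.67 percent). Compared letter by letter, 4 of 12 were higher at 3 days in all 3 pairs (Grin1, Grin2a, Grin2b and Gria1, 1 probe set each) and 1 was lower, a Grin2c probe set, beside 16.9 and 13.2 percent of all. At 1 day 2 were higher in all 3 pairs (Gria1 and Gria2) and 0 lower, beside 16.8 and 9.28 percent. Between the times Grin2b was higher and the same Grin2c probe set lower in all pairs, 1 each, beside 12.5 and 12.9 percent. With the letter as a block, 1 of 12 had an unadjusted p under 0.05 in limma at 3 days, Grin2b (5.15 percent of all), 0 at 1 day (2.59 percent) and 0 between the times (5.24 percent), and 0 passed adjustment.

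Marker sets of several cell types also differed between the 3-day and control arrays. The signals of 12 magnocellular markers summed to 12810 to 15490 at 3 days and to 6303 to 10150 in control. The sums of 10 astrocyte markers were 14610 to 19200 and 9424 to 14510, those of 10 microglial markers 1683 to 1699 and 1387 to 1451, and those of 10 vessel and blood markers 1498 to 2076 and 2331 to 2658. These 4 sets of sums did not overlap, though the astrocyte sums came within about 100 units, and control c gave the lowest control sum for the magnocellular (6303) and astrocyte (9424) sets. Brighter markers weigh more in such sums, and the magnocellular set includes the hormone genes Avp and Oxt. Avp alone read 3871 to 5678 at 3 days and 1765 to 2868 in control. By gene, 10 of 12 tested magnocellular, 7 of 10 astrocyte, 5 of 5 microglial and 2 of 8 vessel and blood markers were higher at 3 days, and 0 were called. The microglial sums at 1 day, 1553 to 2123, also lay above control. The sums of 11 general neuronal markers were 9717 to 10620 at 3 days and 8096 to 10240 in control, and those of 10 oligodendrocyte markers 4151 to 8775 and 5501 to 8389, both overlapping. No marker on the array was at 0 in any sample. The part of cell composition in the Grin2a and Grin2b values was not tested, and in bulk tissue fewer cells of a type and less RNA per cell cannot be told apart.

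Grin1 encodes GluN1, without which no NMDA receptor reaches the membrane. Its brightest probe set, S39221_g_at, read 129.2, 136.0 and 46.9 in control, 141.3, 92.8 and 61.1 at 1 day and 200.1, 157.3 and 60.6 at 3 days. Array c was the lowest in every group, and the groups overlapped. The 3-day difference was 0.39 ± 0.52, with letter pairs at 0.62, 0.20 and 0.34, and it was -0.09 without control c. That last value keeps the low 3-day c array without the control array of its letter. The 1-day difference was -0.02 ± 0.52, and -0.20 without control c and 1-day c. A second tested Grin1 probe set, L19708_at, was close to the filter and read 5.0 on control c, against 21.9 and 40.7 on the other control arrays. It stood at 0.52 ± 0.62 at 1 day and 0.36 ± 0.62 at 3 days, and at -0.12 and -0.28 without control c alone. The other Grin1 probe sets, U11418_s_at and S39221_at, had mean signals of 13.4 and 8.1 and were not tested.

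Grin2c and Grin2d encode GluN2C and GluN2D, subunits that give NMDA receptors weak magnesium block. The brighter Grin2c probe set, D13212_s_at, read 236.9, 152.9 and 132.1 in control, 209.8, 142.0 and 146.0 at 1 day and 206.7, 102.6 and 117.1 at 3 days. Array a was the highest in each group, and the 3-day array was the lower one in all 3 letter pairs (-0.19, -0.56 and -0.17). The difference at 3 days was -0.31 ± 0.34. It was -0.07 without control a and -0.48 without control c, each with the 3-day array of that letter kept. At 1 day it was -0.05 ± 0.34, and -0.14 without control c and 1-day c. The other Grin2c probe set, U08259_r_at, stood at 0.09 ± 0.42 at 3 days (0.18 without control c), so that the probe sets differed in sign within their errors. At 1 day it stood at -0.07 ± 0.42, and at 0.41 without control c and 1-day c. For Grin2d, U08260_at averaged 90.1 ± 24.2 at 3 days, 97.7 ± 23.4 at 1 day and 91.3 ± 25.8 in control (SD, n = 3 each), with differences of -0.02 ± 0.32 at 3 days and 0.10 ± 0.32 at 1 day. They were -0.16 and -0.15 without the doubted arrays. Its 95% interval at 3 days, from -0.72 to 0.69, leaves room for changes of either sign. D13213_s_at, the second Grin2d probe set, stood at 0.22 ± 0.38 at 3 days and 0.04 ± 0.38 at 1 day, and at -0.11 and -0.02 without those arrays.

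Over the 8 tested NMDA probe sets, 6 were higher and 2 lower at 3 days, and the median of their log2 fold changes was 0.29. At 1 day 5 were higher and 3 lower, with a median of 0.07. The medians of all probe sets tested were 0.02 at both times. The 4 tested AMPA probe sets were split at both times, with 2 higher and 2 lower and medians of 0.01 at 3 days and 0.12 at 1 day. Over the 12 together, 8 were higher at 3 days, or 66.7 percent, beside 51.7 percent of all probe sets. At 1 day 7 were higher, or 58.3 percent, beside 52.7 percent. These counts changed when control c was left out. Without it 3 of the 8 NMDA probe sets and 1 of the 4 AMPA probe sets were higher at 3 days, with medians of -0.10 and -0.13. That is 4 of 12, or 33.3 percent, beside 47.8 percent of all probe sets. At 1 day, without control c and 1-day c, 2 of 8 NMDA and 2 of 4 AMPA probe sets were higher, with medians of -0.09 and 0.00, or 33.3 percent of the 12 beside 52.3 percent. At 1 day, with letter c out of both groups, the direction of the subunits as a group thus did not hold. At 3 days letter c was then left in the dehydrated group only, so letter and group were not fully separated. The 3-day counts without control c therefore cannot decide whether a direction would hold with matched letters.

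**Figure D2:**
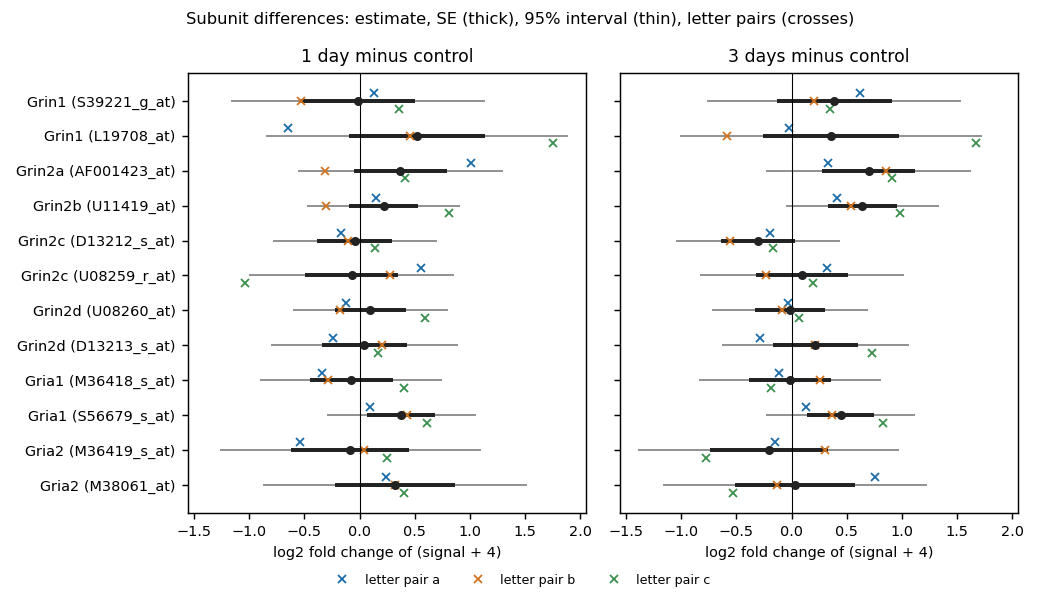
Log2 fold change of (signal + 4) of the 12 tested subunit probe sets, at 1 day (left) and 3 days (right) against control. Points are limma estimates from the fit without the letter, thick lines ± SE, thin lines 95% intervals, and crosses the differences within letter pairs. Every 95% interval drawn includes 0, and Grin2b at 3 days comes closest to excluding it (-0.06 to 1.34). With the letter as a block (not drawn), Grin2b at 3 days had a limma p of 0.035 unadjusted and 0.87 adjusted.

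Gria1 encodes GluA1, an AMPA subunit that is moved to synapses during potentiation. Its probe set S56679_s_at read 84.0, 49.8 and 47.5 in control, 89.8, 68.5 and 74.7 at 1 day and 92.6, 65.2 and 87.6 at 3 days. The groups overlapped through control a, but within each letter the dehydrated arrays read above the control array. The difference was 0.38 ± 0.31 at 1 day (letter pairs 0.09, 0.43 and 0.61) and 0.44 ± 0.31 at 3 days (0.13, 0.36 and 0.83). Both used the same control arrays. The differences were larger without control a, at 0.63 and 0.69, and smaller without control c, at 0.24 and 0.30. In each case the dehydrated arrays of that letter were kept. The brightest Gria1 probe set, M36418_s_at, did not share the pattern. It read 153.8, 81.1 and 80.1 in control, 120.8, 65.6 and 107.1 at 1 day and 141.6, 97.8 and 70.0 at 3 days, with differences of -0.08 ± 0.37 at 1 day and -0.01 ± 0.37 at 3 days, and of -0.31 and -0.17 without the doubted arrays. The dim X17184_at, under the filter, read 29.1, 24.3 and 25.3 at 3 days, against 42.6, 3.1 and 11.1 in control.

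Gria2 encodes GluA2, whose edited form keeps calcium out of the channel. Probe set M36419_s_at read 139.3, 61.2 and 48.3 in control, 94.4, 62.9 and 58.0 at 1 day and 125.1, 76.3 and 26.6 at 3 days. Array a was again the highest of each group. M38061_at read 28.1, 83.7 and 36.5 in control, 33.9, 105.7 and 49.4 at 1 day and 50.1, 75.9 and 24.1 at 3 days, with array b the highest of each group. The differences at 3 days were -0.21 ± 0.54 for M36419_s_at and 0.03 ± 0.54 for M38061_at. At 1 day they were -0.09 ± 0.54 and 0.32 ± 0.54. M36419_s_at stood at -0.50 at 3 days and -0.25 at 1 day without the doubted arrays, and M38061_at at -0.10 and 0.28. The 3-day letter pairs of M36419_s_at were -0.15, 0.30 and -0.77 for a, b and c, and 3-day c was kept in the value of -0.50. These probe sets ordered the letters differently, and over the 9 arrays their log2 values correlated with r = 0.07.

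Gria3 and Gria4 encode GluA3 and GluA4. All 5 of their probe sets were dim, and none was tested. The Gria3 probe set M36420_s_at read 33.6, 19.9 and 21.1 in control, 16.4, 24.6 and 20.0 at 1 day and 25.8, 16 and 14.8 at 3 days. X54656_at read 8.0 to 31.5 at 3 days, 13.9 to 42.7 at 1 day and 13.4 to 25.6 in control, overlapping throughout. For Gria4, M36421_s_at read 23.5, 26.0 and 22.4 at 1 day, against 13.3, 17.5 and 16 in control, and these groups did not overlap. It is 1 of the 9 subunit probe sets under the filter. Among tested probe sets 2.63 percent were apart on this side at 1 day, and no such share was taken under the filter. The other Gria4 probe sets overlapped: S94371_at read 17.7, 20.7 and 1.1 at 1 day against 16, 6.8 and 5.3 in control, and S94371_g_at 6.2, 4.4 and 0.8 against 4.6, 15.9 and 13.1. At 1 day 2 of the 3 S94371_g_at values lay below all control values. In a fit with no filter, over 8740 probe sets, 0 of the 21 subunit probe sets were called in any comparison. There 1 had an unadjusted p under 0.05 in limma, S94371_g_at at 3 days, with 4.9, 2.0 and 3.0 against 4.6, 15.9 and 13.1 in control (1.86 percent of all probe sets).

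The array letter accompanied more of the variation of the subunits than dehydration did. In a balanced decomposition of each probe set's sum of squares over the 9 arrays, the letter took a median of 71.8 percent over the 12 tested subunit probe sets and the dehydration group 6.63 percent. Over all 5247 probe sets the medians were 43.6 and 15.7 percent. For Grin1 (S39221_g_at) the letter took 85.0 percent and the group 8.12 percent, for Grin2c (D13212_s_at) 80.6 and 13.0 percent, and for Gria2 (M36419_s_at) 79.2 and 1.75 percent. Grin2b was the 1 probe set of the 12 in which the group took the larger share, 46.4 against 27.8 percent. Array a was the highest of its group in all 3 groups for 6 of the 12, beside 12.9 percent of all probe sets. What a letter marks is not stated in the labels.

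**Figure D3:**
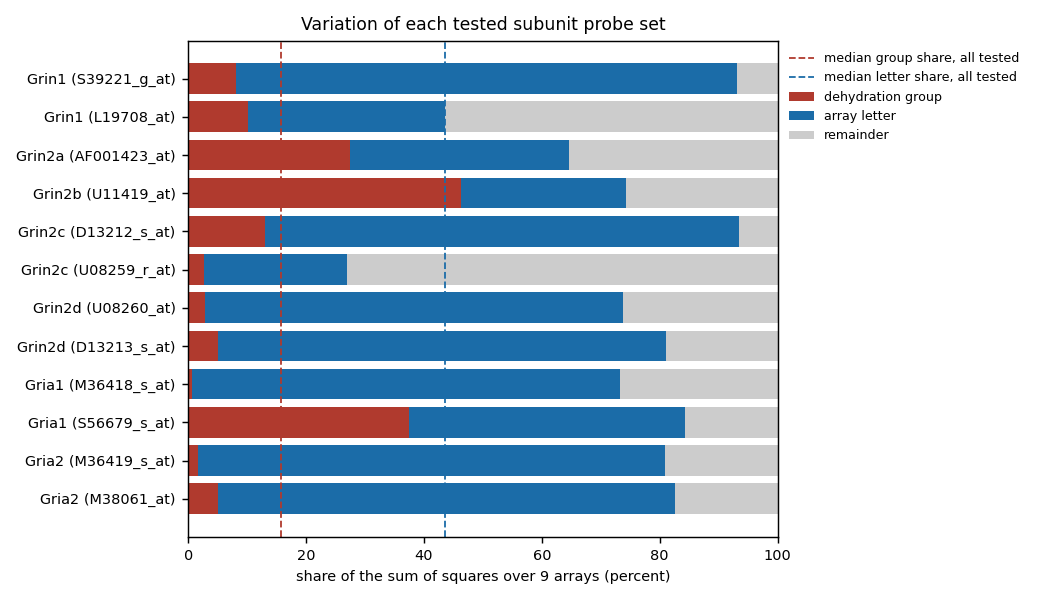
Share (percent) of each tested subunit probe set's sum of squares over the 9 arrays that lies between dehydration groups (red), between array letters (blue) and in the remainder (grey). Dashed lines are the medians over all 5247 probe sets, 15.7 percent for the group and 43.6 percent for the letter; 8 of the 12 blue segments are longer than that letter median.

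Signals of several subunits moved together over the arrays. On log2 values of the brightest tested probe set of each gene, Pearson's r over the 9 arrays, given as a description, was 0.92 for Grin2d with Gria1, 0.85 for Gria1 with Gria2 and 0.82 for Grin2c with Grin2d. Grin2a had an r of 0.08 with Grin1, 0.09 with Grin2c, 0.41 with Grin2d, 0.38 with Gria1, -0.02 with Gria2 and 0.68 with Grin2b. Grin2b also had an r of 0.65 with Grin1 and 0.60 with Gria1. All these values share the 9 arrays and their letters. Of 4341 other named probe sets, those most like Grin2c (D13212_s_at) were Kctd15 (r = 0.93), Vegfa (0.92) and Srpk2 (0.91). Those most like Gria1 (M36418_s_at) were a probe set of the protein kinase C gene Prkce (M15523_s_at, 0.96), the cohesin loader Nipbl (0.95) and the sorting protein gene Pacs1 (0.94). The Prkce probe sets differed. At 3 days M15523_s_at read 171.1, 105.1 and 62.5, and the brighter M18331_g_at read 202.7, 112.6 and 176.4.

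Probe sets of 1 gene often disagreed. For the 5 genes with a pair of tested probe sets, r over the 9 arrays was 0.49 for Grin1, 0.35 for Grin2c, 0.48 for Grin2d, 0.53 for Gria1 and 0.07 for Gria2. For Grin2a the tested probe set and the dim one had r = -0.55. Of the 21 probe sets, 9 carry the suffix s, which marks probes that match more than 1 transcript in the array's design. Signal from splice forms and from related subunits cannot be told apart on those.

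The balance of Grin2b to Grin2a, the pair that sets much of NMDA receptor kinetics, was compared within arrays, as log2(signal + 4) of U11419_at minus that of AF001423_at. It was 0.15 ± 0.40 at 3 days, 0.05 ± 0.54 at 1 day and 0.21 ± 0.51 in control (SD, n = 3 each). The difference from control was -0.06 ± 0.37 at 3 days and -0.15 ± 0.43 at 1 day (± SE; exact two-sided permutation p = 0.80 for both, where 0.10 is the smallest possible with 3 arrays against 3). Without control c they were -0.34 and -0.44, and without 1-day c as well the 1-day value was -0.42. Gria1 over Gria2 (M36418_s_at minus M36419_s_at) was 0.60 ± 0.59 at 3 days, 0.41 ± 0.40 at 1 day and 0.40 ± 0.27 in control (SD, n = 3 each). Its difference from control was 0.19 ± 0.38 at 3 days (exact p = 0.80) and 0.01 ± 0.28 at 1 day (exact p = 1.0). With the other Gria2 probe set these were -0.04 and -0.40. With the probe set first named and the doubted arrays left out they were 0.33 and -0.06. Such values bear on unequal change of a pair of probe sets and not on their relative level.

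Genes that act with these receptors were followed in 6 lists, holding 160 genes; 105 were on the array with a probe set of their own and 78 were tested, by the brightest probe set of each gene. In limma 0 of the 78 passed at 1 day and 0 at 3 days. At an unadjusted p under 0.05 the counts were 0 and 0 (1.01 and 1.72 percent of all probe sets), and 2 between the times (1.83 percent). At 3 days 43 were higher and 35 lower, with a median of 0.05, where 51.7 percent of all probe sets were higher. At 1 day 34 were higher and 44 lower, with a median of -0.04, beside 52.7 percent. With the doubted arrays left out, 45 were higher at 3 days and 42 at 1 day, with medians of 0.05 and 0.02.

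Scaffold, auxiliary and trafficking genes, which anchor and deliver the receptors, had 15 of 24 higher and a median of 0.17 at 3 days, with 10 higher and a median of -0.06 at 1 day. Without the doubted arrays 15 and 11 were higher, with medians of 0.06 and -0.03. Those with the smallest p at 3 days were the scaffold Shank2 at 1.04 ± 0.59, Nsf, the fusion ATPase that also binds GluA2, at 0.43 ± 0.27, and Lin7a, a partner of synaptic scaffolds, at 0.57 ± 0.43. At 1 day these were Lin7b at -0.73 ± 0.36, the PSD-95 binding protein Dlgap1 at 0.72 ± 0.40 and Nsf at 0.46 ± 0.27. Without those arrays Nsf stood at 0.18 at 3 days and 0.17 at 1 day. Shank2 read 79.1, 63.2 and 71.0 at 3 days, against 79.5, 10.4 and 35.7 in control, so that the groups overlapped and control b was the lowest. Dlgap1 read 50, 55.4 and 78.8 at 1 day, against 29.2, 38.2 and 38.1 in control, without overlap. Lin7b read 59.2, 33.7 and 67.7, against 82.7, 107.8 and 75.7, also apart. These were the only genes of the list apart at 1 day, 1 on each side, beside 2.63 (higher) and 1.58 percent (lower) of all probe sets. At 3 days 3 of 24 were apart on the higher side and 0 on the lower, beside 4.73 and 3.01 percent. PSD-95 itself (Dlg4) stood at 0.04 ± 0.30 at 3 days and -0.06 ± 0.30 at 1 day (0.00 without the doubted arrays).

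Kinases, phosphatases and calcium targets downstream of NMDA receptors had 21 of 33 higher and a median of 0.07 at 3 days, with 13 higher and a median of -0.05 at 1 day (15 and -0.08 without the doubted arrays). Camk2b, a subunit of calcium/calmodulin-dependent kinase II, read 1065, 989.8 and 1955 at 3 days, against 914.5, 984.2 and 712.4 in control and 756.2, 838.4 and 776.5 at 1 day. Its 3-day arrays lay above all others, by 5.6 units in the closest case. It stood at 0.56 ± 0.29 at 3 days against control and 0.69 ± 0.29 against 1 day. Cdk5r1, the activator of the kinase Cdk5, stood at 0.53 ± 0.31 at 3 days and the phosphatase subunit Ppp1ca at -0.70 ± 0.45. Ppp1ca read 437.8, 138.4 and 375.7 at 3 days, against 460.9, 399.7 and 536.8 in control, overlapping. In this list 2 of 33 genes were apart from control on the higher side at 3 days and 0 on the lower. The shares of all probe sets were 4.73 and 3.01 percent. At 1 day the smallest p belonged to the calcium pump Atp2b2 at -0.41 ± 0.30, the spine protein gene Ppp1r9b at 0.35 ± 0.26 and the phosphatase subunit Ppp1cc at -0.74 ± 0.60. Ppp1cc read 332.1, 334.8 and 49.7 at 1 day, against 296.7, 317.1 and 292.8 in control, so that 1-day c alone was low. It stood at 0.12 without the doubted arrays, and Atp2b2 at -0.23.

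Glutamate transport, synthesis and breakdown had 4 of 8 genes higher at 3 days (median 0.09) and 7 of 8 at 1 day (median 0.14). Glul, the astrocytic glutamine synthetase, stood at 0.48 ± 0.27 at 3 days and the astrocytic glutamate transporter Slc1a3 at 0.44 ± 0.25; both are also among the astrocyte markers, whose sum was higher at 3 days. Glud1, glutamate dehydrogenase, read 835.2, 896.2 and 810.5 at 3 days, against 917.1, 1175 and 955.8 in control, without overlap (-0.25 ± 0.21). At 3 days 1 of the 8 genes was apart on each side, beside 4.73 (higher) and 3.01 percent (lower) of all probe sets. At 1 day Slc1a3 stood at 0.22 ± 0.25, the transporter Slc1a2 at 0.24 ± 0.38 and the aminotransferase Got1 at 0.17 ± 0.28. Without the doubted arrays the 3-day median was 0.19 with 5 of 8 higher, and at 1 day Slc1a3 stood at 0.44 and Got1 at 0.09. The co-agonist list had 4 of 5 genes lower at both times, with medians of -0.13 at 3 days and -0.26 at 1 day. The 4 lower genes include Kyat1, which does not itself supply glycine or D-serine. Without the doubted arrays 2 of 5 were lower at 3 days and 3 of 5 at 1 day, with medians of 0.01 and -0.02. The genes with the smallest p were the glycine transporters Slc6a5, at -0.51 ± 0.84 at 3 days and -0.56 ± 0.84 at 1 day, and Slc6a9, at 0.17 ± 0.39 and -0.30 ± 0.39. Phgdh, an enzyme of serine synthesis, stood at -0.13 ± 0.25 at 3 days and the transaminase Kyat1 at -0.20 ± 0.30 at 1 day. Slc6a5 read 53.7, 62.4 and 2.0 at 1 day, against 43.7, 41.2 and 29.9 in control, so that 1-day c alone was below the control arrays. Slc6a5 stood at 0.41 and Slc6a9 at 0.01 at 1 day without the doubted arrays, Kyat1 at -0.10, and Phgdh at 0.01 at 3 days.

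Kainate and delta receptor subunits had 4 of 5 genes lower at both times, with medians of -0.06 at 3 days and -0.16 at 1 day. Without the doubted arrays 5 of 5 were lower at 3 days (median -0.16) and 1 of 5 at 1 day (median 0.12). Grik2, which encodes the kainate subunit GluK2, read 31.7, 24.2 and 14.0 at 3 days, against 38.2, 66.9 and 46.5 at 1 day and 48.2, 41.1 and 26.7 in control. The 3-day arrays lay below all 1-day arrays (-1.02 ± 0.41, limma adjusted p = 0.998) and overlapped the control arrays (-0.67 ± 0.41). Between the times 1 of the 5 genes was apart on the lower side, beside 2.67 percent of all probe sets. Grik4 read 62.9, 17.8 and 35.5 at 3 days, against 62.5, 60.6 and 62.5 in control, overlapping. Grik4 stood at -0.77 ± 0.45 at 3 days and -0.16 ± 0.45 at 1 day, and the delta subunit gene Grid1 at 0.20 ± 0.61 and -0.37 ± 0.61. Without the doubted arrays Grik4 stood at 0.17 at 1 day, and Grid1 at -0.13 at 3 days and 0.12 at 1 day. Metabotropic receptors had 1 of 3 genes higher at 3 days and 2 of 3 at 1 day, with medians of -0.01 and 0.04. Grm3 stood at 0.31 ± 0.30 and 0.15 ± 0.30, Grm4 at -0.01 ± 0.33 and 0.04 ± 0.33, and Grm7 at -0.24 ± 0.38 and -0.32 ± 0.38. Grm7 read 60.7, 65.9 and 24.2 at 1 day, against 59.9, 59.5 and 57.3 in control, and without the doubted arrays it stood at 0.08. Grm4 then stood at 0.05 at 3 days and 0.10 at 1 day, and the list had 2 of 3 higher at 3 days and 3 of 3 at 1 day, with medians of 0.05 and 0.10.

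**Figure D4:**
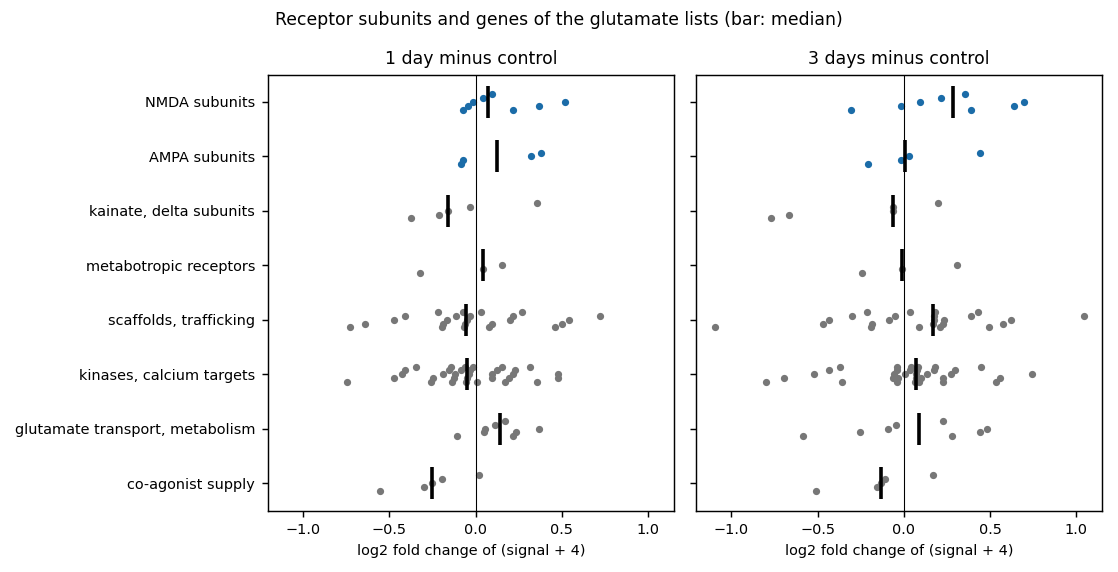
Log2 fold change of (signal + 4) at 1 day (left) and 3 days (right) against control. Blue points are the tested NMDA and AMPA subunit probe sets, grey points the genes of the 6 glutamate lists and black bars the medians. The NMDA median is 0.07 at 1 day and 0.29 at 3 days. Without control c and 1-day c (not drawn) it is -0.09 and -0.10. The 3-day value of -0.10 keeps 3-day c without the control array of its letter.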

How the data were processed

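The authors deposited 1 linear intensity per probe set and array, and the submitters' processing notes name MAS5; the version used, its settings and a build are not given in the sources used here. They were tested as log2(intensity + 4) over 5247 of 8740 probe sets that are not controls. With limma 3.58.1 (R 4.3.3), 1 model with a mean per group was fitted over the 9 arrays (6 residual degrees of freedom) with an intensity-dependent prior, two-sided tests and a threshold of 0.05 on Benjamini-Hochberg adjusted p. Every adjusted p is from limma. No scaling was added. Ratios within arrays were tested by exact permutation (scipy 1.17.1). All 9 gene IDs matched the RefSeq table, used for names only. The fit was tested on simulated data.

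The subunits, the 6 glutamate lists and the cell type markers were chosen with earlier results of these data known. Named genes are all subunit probe sets, up to 3 genes of each list with the smallest p at 1 day and at 3 days, and the 3 probe sets most like the brightest NMDA and AMPA ones; Dlg4, and the results between the times for Camk2b and Grik2, were chosen after their values were seen. Arrays of the same letter pair across groups: their deviations from the group means correlated in all 9 pairs (r from 0.17 to 0.47; -0.33 to 0.12 for different letters). Alternatives were other pseudocounts, filters and scalings, no intensity trend, only the groups compared, the letter as a block, and arrays left out.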

Additional observations from a re-analysis of the deposited data

How the results depend on the processing

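The counts of probe sets, of subunit probe sets and of list genes called stayed at 0 in limma under all 19 alternatives, and the lowest adjusted p of a subunit was 0.770. With the replicate letter as a replicate block, which leaves 4 residual degrees of freedom, no call changed: the counts were 0, and Grin2b at 3 days stood at 0.64 with an unadjusted p of 0.035. Of the 36 subunit differences (12 probe sets in 3 comparisons) 5 exceeded their SE, and 0 of these changed sign under an alternative: Grin2a and Grin2b at 3 days (0.55 to 0.80 and 0.40 to 0.84), Grin2b between the times (0.22 to 0.59), and Gria1 (S56679_s_at) at 1 and 3 days (0.24 to 0.63 and 0.30 to 0.69). Of the 31 others, 27 changed sign under at least 1 alternative, so no direction is claimed for them. These SE are from the fit without the letter. With the letter as a block the SE were smaller: 0.24 against 0.52 for Grin1 (S39221_g_at) and 0.19 against 0.34 for Grin2c (D13212_s_at). The 3-day differences of these probe sets, 0.39 and -0.31, exceeded the block SE in size. The medians over the subunits changed sign without control c and 1-day c. Over the 12 they were -0.088 at 1 day, -0.10 at 3 days and -0.046 between the times. Over the NMDA probe sets they were -0.088, -0.097 and -0.046, and over the AMPA probe sets at 3 days -0.13. The medians that involve the 3-day group keep 3-day c without its letter in the other group. The cause was not tested. Quantile normalization and median centring left the median of all tested probe sets between -0.02 and 0.00. Having only 3 arrays in a group limits what can be seen, with a median SE of 0.40 for a log2 fold change. The arrays left out together, control c and 1-day c, were chosen with earlier results known. Their use for the medians, lists and list genes, and the comparison of Gria1 with the other Gria2 probe set were added after seeing the data.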
